A study of Arabidopsis thaliana with 12 samples.

Results

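The genes described here are 8 nuclear genes of Arabidopsis thaliana that encode small light-stress relatives of the chlorophyll-binding antenna proteins: ELIP1 (AT3G22840), ELIP2 (AT4G14690), OHP1 (AT5G02120), OHP2 (AT1G34000), SEP1 (AT4G34190), SEP2 (AT2G21970), LIL3:1 (AT4G17600) and LIL3:2 (AT5G47110). They were taken by gene identifier, 8 of the 33602 genes in the count table. The list was chosen by measured values as far as the ELIP genes go: their fold changes in both mutants were known when the 8 were listed, so their differences are descriptions with no test. The study compared mutants in TFIIFα, the large subunit (RAP74) of the general transcription factor TFIIF, which works with RNA polymerase II at promoters, against wild type. Aerial parts of seedlings aged 6 days, raised on sucrose medium, were sequenced; growth was at a labelled light level of about 80 µE with 16 h of light and 8 h of dark. The tfIIfα1 mutant and the wild type named 1171WTCol3 were sequenced with a stranded mRNA kit, and the tfIIfα2 mutant and the wild type named WTCol0 with a stranded total RNA kit that depletes ribosomal RNA, with 3 libraries in each of the 4 groups. The labels give no kind of mutation for either allele and no word on how the wild types differ. Allele, kit and wild-type line therefore cannot be told apart between the mutants, and every comparison of mutant with wild type stays within 1 kit.

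All 8 proteins belong to the light-harvesting superfamily, whose members cross the thylakoid membrane with helices that can bind chlorophyll. ELIPs (early light-induced proteins, with 3 helices) appear for a short time during greening and under high light, and are thought to bind chlorophyll that would otherwise cause photo-oxidation. OHPs (one-helix proteins) act together with the assembly factor HCF244 in the making of the photosystem II reaction centre, SEPs (stress-enhanced proteins) have a pair of helices and SEP transcripts rise under high light, and LIL3 proteins hold enzymes of the last steps of chlorophyll synthesis at the membrane.

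The mRNA libraries held 55915638 to 66711096 counts each, and the total RNA libraries 33292996 to 37456773, of which in the latter 12069295 to 14652749 fell on nuclear genes. Levels are CPM, counts per 1000000 counts of a library, organelle genes included, after TMM scaling of library sizes. RAP74 (AT4G12610) had 18.4 to 21.3 CPM in wild type and 14.3 to 16.5 in tfIIfα1, and 7.58 to 8.06 CPM in wild type and 4.84 to 6.03 in tfIIfα2, so the mutants were lower without overlap but kept most of the transcript. The column headers of 2 of the 3 tfIIfα1 libraries, here a and b, name the other allele. They were placed by the header prefix, which among the sample titles only those of mRNA libraries carry. Libraries a and b also stood apart in that 72.2% and 69.6% of their nonzero gene counts were even numbers, against 57.6 to 61.5% in the other mRNA libraries. Some tfIIfα1 values are therefore also given from replicate 1 alone, but not those of OHP1, OHP2 or single genes of the lists below. The 3 markers of aerial tissue summed to 50219 to 56410 CPM in wild type and 53657 to 54572 in tfIIfα1, and to 7077 to 13149 and 7523 to 13795 in the total RNA groups. The 8 root markers summed to 4.40 CPM or less in every library, and RHD6, a regulator of root hairs, was at 0 in tfIIfα1. The root sum was higher without overlap in tfIIfα2 (1.40 to 1.90 CPM) than in its wild type (0.554 to 0.940 CPM). In tfIIfα1 (1.18 to 3.05 CPM) the sum overlapped its wild type (2.58 to 4.40 CPM). By gene, RHD6, COBL9, EXPA7, LRX1 and WOX5 were lower without overlap in tfIIfα1, and CASP1, MYB36 and PLT1 overlapped. Most of the difference in the tfIIfα2 sum lay in CASP1, a gene of the root endodermis (mean 0.223 CPM in wild type and 0.924 in tfIIfα2). CASP1, COBL9, MYB36 and PLT1 were higher without overlap in tfIIfα2, and RHD6, EXPA7 and LRX1 overlapped. WOX5, a gene of the root stem cell niche, was lower without overlap (0.176 to 0.338 CPM in wild type and 0.0776 to 0.158 in tfIIfα2). The part of these markers in the values below was not tested. The labels do not say whether libraries of a group came from separately grown plants, so the p-values describe the spread between these libraries only.

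The DNA before each gene's start was read because light-responsive promoters often hold the G-box, CACGTG, a palindrome bound by bZIP and bHLH factors of light signalling. The 250 bases before the start of ELIP1, ELIP2 and OHP1 are shown, since the ELIP genes differed most between mutant and wild type and the G-box was found only at ELIP1 and OHP1 among the 8. Sequence and coordinates are those of RefSeq on build TAIR10.1, 5′ to 3′ on the gene's strand; the count table itself holds no coordinates. Capitals mark the G-box. The ELIP1 stretch is chr3:8085670-8085919 (minus strand), the ELIP2 stretch chr4:8417992-8418241 (plus strand) and the OHP1 stretch chr5:418841-419090 (plus strand).
ELIP1: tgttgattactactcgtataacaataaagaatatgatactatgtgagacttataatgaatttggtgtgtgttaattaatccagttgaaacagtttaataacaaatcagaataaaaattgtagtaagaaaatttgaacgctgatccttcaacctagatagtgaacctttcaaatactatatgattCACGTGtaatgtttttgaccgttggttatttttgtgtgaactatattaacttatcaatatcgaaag
ELIP2: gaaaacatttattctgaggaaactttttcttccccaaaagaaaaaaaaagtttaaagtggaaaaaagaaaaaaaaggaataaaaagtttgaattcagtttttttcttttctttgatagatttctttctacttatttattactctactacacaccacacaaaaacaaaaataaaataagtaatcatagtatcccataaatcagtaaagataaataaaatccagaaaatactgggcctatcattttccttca
OHP1: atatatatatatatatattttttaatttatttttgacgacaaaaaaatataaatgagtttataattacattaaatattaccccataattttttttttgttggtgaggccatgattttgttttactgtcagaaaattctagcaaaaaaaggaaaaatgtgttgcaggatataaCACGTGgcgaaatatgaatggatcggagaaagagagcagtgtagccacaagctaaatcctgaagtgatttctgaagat

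The G-box lies 66 to 61 bases before the annotated start of ELIP1 and 78 to 73 bases before that of OHP1, and 6.49% of 27443 windows of the same length in the genome hold one. The other 3 motifs were sought on both strands as well. The heat shock element core GAANNTTC was found before OHP1 (121 to 114 bases, in 9.55% of all windows) and the CCA1-binding site AAAAATCT before OHP2 (143 to 136 bases, in 6.69%). The evening element AAATATCT, in 4.79% of windows, was found before none of the 8. ELIP2, SEP1, SEP2, LIL3:1 and LIL3:2 had none of the 4 motifs in this window, which for SEP1 also holds exon sequence of the neighbouring gene AT4G34200. Although ELIP1 and ELIP2 are paralogs, the stretches shown differ in that the ELIP2 stretch holds no G-box.

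The paralogs share few long identical stretches: 0.198% of the windows of 25 bases in ELIP1 also occur in ELIP2, and 1.88% of those in LIL3:1 also occur in LIL3:2. ELIP1 (chr3:8084405-8085669, 3 exons, 195 residues) and ELIP2 (chr4:8418242-8419325, 3 exons, 193 residues) share 78.9% of 564 aligned coding bases, with a longest identical run of 26 bases, and LIL3:1 (chr4:9803624-9805410) and LIL3:2 (chr5:19133986-19135414) share 80.3% of 762, with a run of 40. The OHP pair (68.8% identity, longest run 10 bases) and the SEP pair (61.5%, longest run 9 bases) are more distant. OHP1 lies at chr5:419091-419773, OHP2 at chr1:12357910-12358966, SEP1 at chr4:16372333-16373736 and SEP2 at chr2:9356983-9357967. In the deposited table the symbols SEP1 and SEP2 stand as calendar dates, like 12 symbols in all, and these genes were found by identifier.

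Both ELIP genes, of which few transcripts were present in wild type, had several times the wild-type level in both mutants. In wild-type mRNA replicates 1, 2 and 3 ELIP1 stood at 2.23, 1.80 and 2.39 CPM, and in tfIIfα1 replicate 1 and libraries a and b at 5.74, 9.66 and 10.7 CPM. In the same order, wild type held 6.90, 6.26 and 7.25 CPM of ELIP2 and tfIIfα1 held 18.3, 27.2 and 25.4 CPM. For both genes every mutant library lay above every wild-type library, and replicate 1 was the lowest of the mutant libraries. The fitted differences were 2.02 ± 0.20 (log2, SE, 4.05-fold) for ELIP1 and 1.79 ± 0.13 (3.47-fold) for ELIP2. They stood at places 113 and 150 of 20371 genes ordered from the largest increase. From tfIIfα1 replicate 1 alone against the 3 wild-type libraries the differences were 1.42 and 1.43. In bulk tissue, a change in the share of cells of a type and a change in RNA per cell cannot be told apart. This holds for these genes and those that follow.

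In the total RNA libraries the ELIP levels were low in wild type and scattered in both groups. ELIP1 had 1.88, 0.764 and 0.431 CPM in wild-type replicates 1, 2 and 3, from 75, 26 and 14 counts, and 9.13, 3.88 and 6.72 CPM in tfIIfα2, from 353, 123 and 209 counts. For ELIP2 the wild-type levels were 3.11, 1.53 and 1.63 CPM, and those of tfIIfα2 were 16.9, 6.44 and 15.3 CPM. Again no mutant library overlapped the wild type, and replicate 1 was the highest library of both genes in both groups. The differences were 2.65 ± 0.50 (6.26-fold) for ELIP1 and 2.61 ± 0.42 (6.10-fold) for ELIP2, at places 18 and 24 of 18863 genes. With the replicate number as a block they were 2.69 ± 0.26 and 2.59 ± 0.18. Taken by number, ELIP1 in tfIIfα2 was 4.85, 5.08 and 15.6 times its level in wild-type replicates 1, 2 and 3. ELIP2 was 5.42, 4.22 and 9.36 times.

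**Figure D1:**
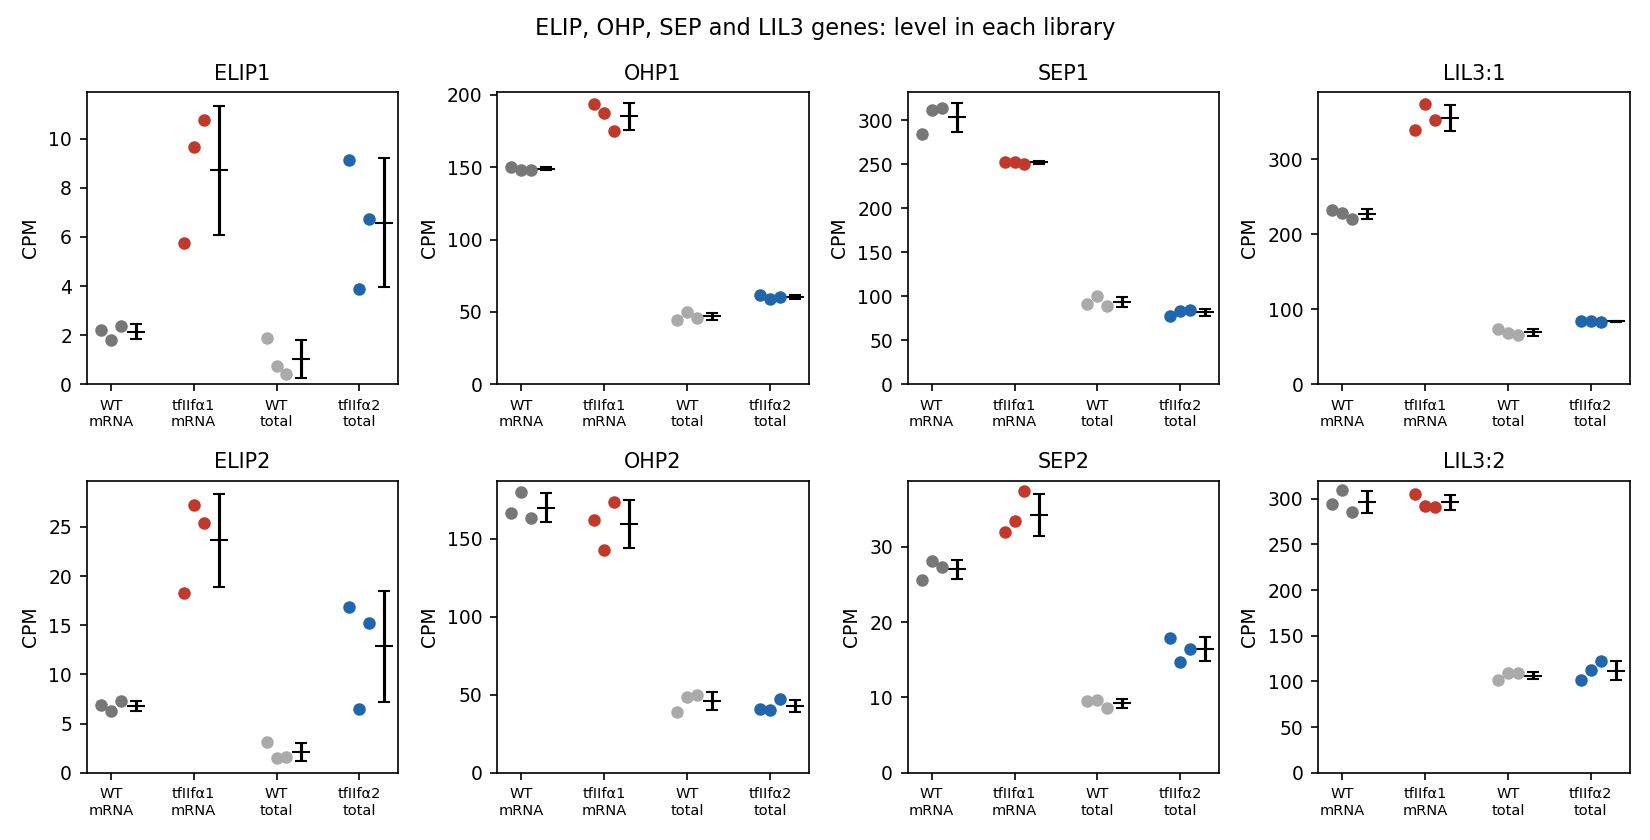
Level of the 8 genes in CPM (vertical axes from 0) in each of the 12 libraries; points are libraries, and bars are the mean ± SD of 3. ELIP1 and ELIP2 are higher in both mutants than in the wild type of the same kit, SEP1 is lower, and OHP2 and LIL3:2 overlap.

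ELIP2, but not ELIP1, lies in a stretch of chromosome 4 (AT4G12640 to AT4G15550) in which genes were generally lower in tfIIfα1 than in the 1171WTCol3 wild type. Over the other 270 tested genes of the stretch the median difference was -0.999 (log2), and over the 20 tested genes nearest to ELIP2 it was -1.13. The 100 tested genes on either side had medians of -0.13 and 0.00. ELIP2 thus stood 2.79 (6.93-fold) above the median of its stretch, and 1 of the 270 genes, AT4G12735 (named after its value was seen), stood higher. In tfIIfα2 the same stretch had a median of -0.03 over 239 genes, ELIP2 stood 2.64 above it, and 1 gene, BAM5, a beta-amylase (likewise named after its value was seen), stood higher. LIL3:1 and SEP1 are on chromosome 4 too but outside the stretch. RAP74 lies just before it, with a difference of -0.38 in tfIIfα1 and -0.51 in tfIIfα2. Between RAP74 and the stretch the tested gene was ORC1B (-0.85 in tfIIfα1 and -0.14 in tfIIfα2). The part of the offset in the RAP74 values was not tested.

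The ratio of ELIP2 to ELIP1 counts within a library does not depend on the scaling. It was 3.10, 3.48 and 3.03 in wild-type mRNA libraries and 3.19, 2.82 and 2.36 in tfIIfα1. It was 1.65, 2.00 and 3.79 in wild-type total RNA libraries, where the last rests on 14 ELIP1 counts, and 1.85, 1.66 and 2.27 in tfIIfα2. Mutant and wild type overlapped in both kits. From pooled counts the ratio was 3.17 in wild type and 2.74 in tfIIfα1, and 1.99 in wild type and 1.94 in tfIIfα2. The part of the chromosome 4 offset in the ELIP2 values was not tested.

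**Figure D2:**
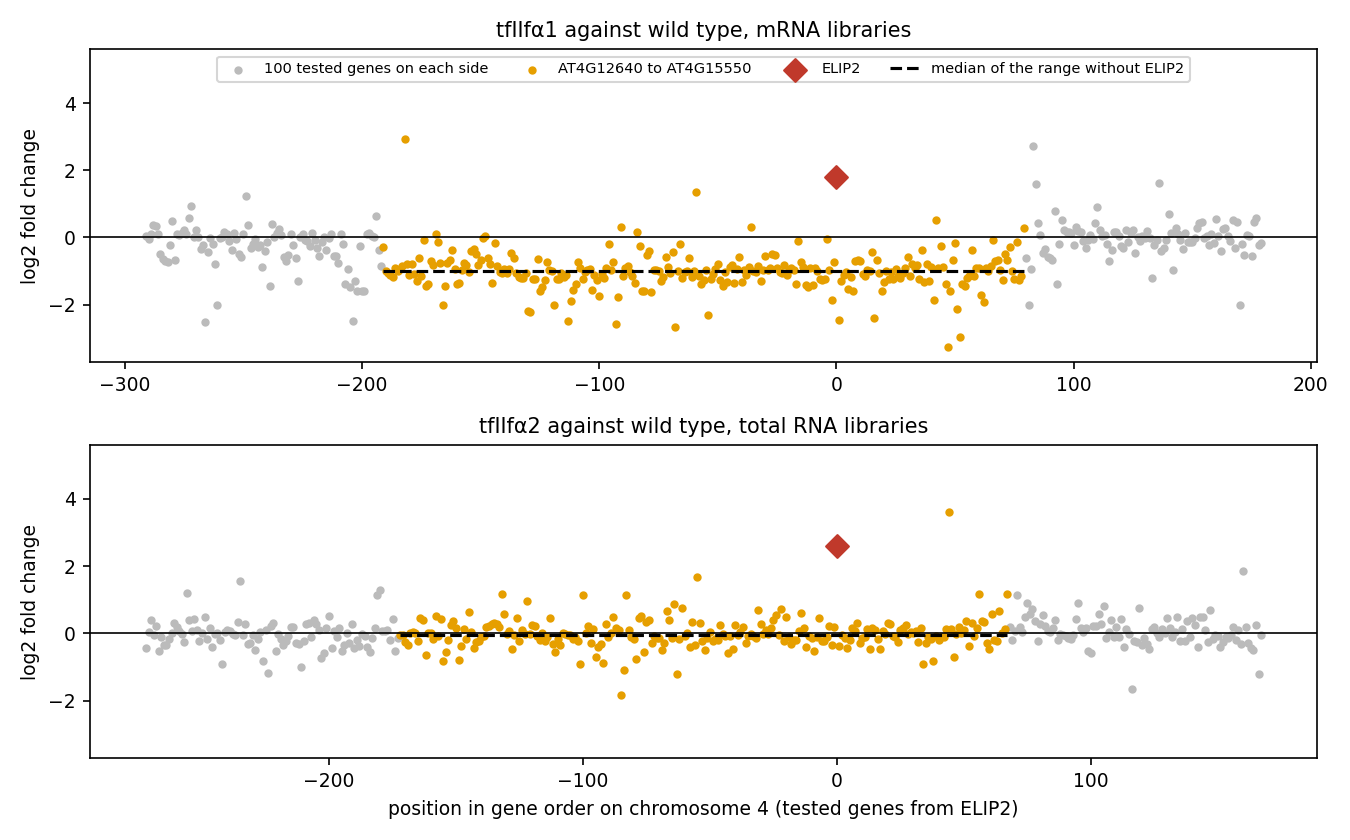
Log2 fold change of mutant over wild type (vertical axis) for tested genes of chromosome 4 in gene order around ELIP2 (horizontal axis, in genes), for tfIIfα1 (top) and tfIIfα2 (bottom). The median of the stretch, dashed, is -0.999 in tfIIfα1 and -0.03 in tfIIfα2, while ELIP2 is at 1.79 and 2.61.

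Of the OHP pair, OHP1 was higher in both mutants and OHP2 overlapped wild type. OHP1 rose in tfIIfα1, from 150, 148 and 148 CPM to 193, 187 and 175 CPM (0.32 ± 0.06, edgeR adjusted p = 0.00071). In tfIIfα2 it had 61.5, 59.2 and 60.1 CPM against 44.7, 49.9 and 46.0 CPM in wild type, without overlap (0.36 ± 0.09), and the edgeR adjusted p was 0.0789, or 0.0195 with the replicate block. OHP2, whose product works with that of OHP1, had 163 to 180 CPM in wild type and 143 to 174 CPM in tfIIfα1 (-0.09 ± 0.07, edgeR adjusted p = 0.345). It had 39.2 to 49.7 CPM in wild type and 40.0 to 47.2 CPM in tfIIfα2 (-0.10 ± 0.13, edgeR adjusted p = 0.704). The ratio of OHP1 to OHP2 in CPM went from 0.824 to 0.908 in wild type to 1.01 to 1.31 in tfIIfα1, and from 0.926 to 1.14 to 1.27 to 1.50 in tfIIfα2, with no overlap in either kit.

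In both mutants SEP2 was higher and the more abundant SEP1 lower without overlap, so their levels came closer. SEP2 rose in tfIIfα1 from 25.7, 28.1 and 27.4 CPM to 32.0, 33.4 and 37.4 CPM (0.34 ± 0.07, edgeR adjusted p = 0.00182). Without library a the difference was 0.36 (edgeR adjusted p = 0.00298) and without b 0.28 (edgeR adjusted p = 0.0106), while from replicate 1 alone, with 1 mutant library left, it was 0.24 with an edgeR adjusted p of 0.0622. In tfIIfα2 SEP2 rose from 9.49, 9.64 and 8.55 CPM to 17.9, 14.7 and 16.5 CPM (0.83 ± 0.11, 1.78-fold, edgeR adjusted p = 0.0223, and 0.00195 with the block). Leaving out any 1 of the 6 libraries took the edgeR adjusted p of SEP2 in tfIIfα2 to between 0.0512 and 0.105, at a difference of 0.76 to 0.90. SEP1, the most abundant of the 8 per length of transcript in wild type, fell in tfIIfα1 from 284, 312 and 314 CPM to 253, 253 and 251 CPM (-0.27 ± 0.06, edgeR adjusted p = 0.00249; from replicate 1 alone -0.26, adjusted p = 0.0374). In tfIIfα2 it stood at 77.1, 83.8 and 84.2 CPM, below the wild-type levels of 91.4, 100.4 and 88.7 CPM without overlap, and did not pass the test (-0.19 ± 0.10, edgeR adjusted p = 0.299). The SEP2 to SEP1 ratio was 0.0871 to 0.0904 in wild type and 0.127 to 0.149 in tfIIfα1, and 0.0960 to 0.104 in wild type and 0.176 to 0.233 in tfIIfα2.

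LIL3:1 gave the smallest adjusted p of the 6 genes tested in tfIIfα1, while its paralog LIL3:2 overlapped wild type in both mutants. LIL3:1 rose from 232, 228 and 220 CPM to 339, 374 and 352 CPM in tfIIfα1 (0.65 ± 0.06, 1.57-fold, edgeR adjusted p = 1.18e-06), and by 0.58 from replicate 1 alone (adjusted p = 0.000117). In tfIIfα2 it had 84.3, 83.8 and 83.4 CPM against 73.7, 68.6 and 65.2 CPM in wild type, without overlap (0.28 ± 0.09), with an edgeR adjusted p of 0.140, or 0.0486 with the block. LIL3:2 had 286 to 310 CPM in wild type and 291 to 305 CPM in tfIIfα1 (-0.0013 ± 0.06, edgeR adjusted p = 0.989), and 101 to 109 CPM in wild type and 101 to 122 CPM in tfIIfα2 (0.07 ± 0.11, edgeR adjusted p = 0.736). The ratio of LIL3:1 to LIL3:2 was 0.736 to 0.791 in wild type and 1.11 to 1.28 in tfIIfα1, so LIL3:1 was the more abundant in CPM in every tfIIfα1 library and the less abundant in every wild-type mRNA library. In the total RNA libraries the ratio was 0.599 to 0.726 in wild type and 0.684 to 0.831 in tfIIfα2, and the groups overlapped.

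Of the 6 genes tested, 3 rose (OHP1, SEP2 and LIL3:1), 1 fell (SEP1) and 2 did not pass in tfIIfα1, where 38.4% of all 20371 genes tested were called, 18.7% higher and 19.6% lower. In tfIIfα2 1 rose (SEP2) and 5 did not pass, where 3.20% of 18863 genes were called, 1.48% higher and 1.72% lower. With the replicate block 3 rose (OHP1, SEP2 and LIL3:1) and none fell, against 18.7% of genes called in either direction, 9.56% higher and 9.18% lower. Among all 8, 6 did not overlap between mutant and wild type in each comparison, 5 of them higher and SEP1 lower, and they were the same genes in both mutants. Of all genes tested, 49.4% did not overlap in tfIIfα1 (24.2% higher, 25.2% lower) and 28.7% in tfIIfα2 (13.1% higher, 15.6% lower). Since the ELIP genes were listed for their rise, nothing is read from these shares.

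**Figure D3:**
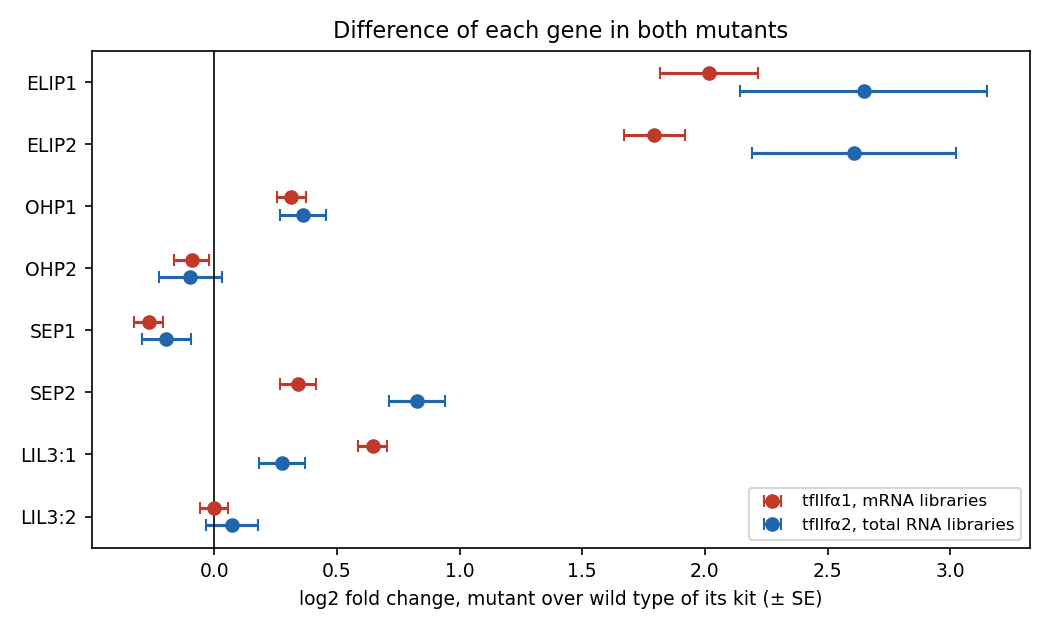
Log2 fold change of mutant over the wild type of its own kit (horizontal axis, points ± SE) for the 8 genes in tfIIfα1 (red) and tfIIfα2 (blue). The ELIP genes lie between 1.79 and 2.65, and the other 6 between -0.27 and 0.83.

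Whether the difference from wild type was unlike in the mutants was tested by the interaction of kit and mutant over all 12 libraries. In it 0.772% of 20602 genes were called. Allele, kit and wild-type line change together in this interaction, so its values cannot be assigned to the alleles. None of the 6 genes passed. SEP2 was 0.48 ± 0.13 (log2) higher in tfIIfα2 than in tfIIfα1 relative to wild type (edgeR adjusted p = 0.204), and the difference of LIL3:1, which was the larger in tfIIfα1, was -0.38 ± 0.11 (edgeR adjusted p = 0.216, DESeq2 adjusted p = 0.00348). The edgeR adjusted p of OHP1, OHP2, SEP1 and LIL3:2 was 0.921 or more. ELIP1 and ELIP2 differed by 0.61 ± 0.58 and 0.80 ± 0.46, with no test.

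Per kilobase of exon, the level of the 8 genes in wild-type mRNA libraries ran from SEP1 (323 CPM per kb) through OHP1 (283), LIL3:2 (250), OHP2 (206), LIL3:1 (140), SEP2 (29.8) and ELIP2 (7.49) to ELIP1 (2.07), and no neighbours in this order overlapped. In tfIIfα1 OHP1 came first (352 CPM per kb), LIL3:1 (219) stood above OHP2 (193) with overlap, and ELIP2 (26.0) and ELIP1 (8.42) remained last. The wild-type total RNA libraries began with SEP1 (99.5 CPM per kb), LIL3:2 (89.7) and OHP1 (89.1), the last pair overlapping, and ended with ELIP2 (2.30) and ELIP1 (0.991), which overlapped too. In tfIIfα2 OHP1 came first (115 CPM per kb), and ELIP2 (14.2) overlapped both SEP2 (18.1) and ELIP1 (6.35). The ELIP genes also varied most between libraries of a group: ELIP1 had a coefficient of variation of 74.2% in wild-type total RNA libraries and 39.9% in tfIIfα2, against 12.6% or less for the 6 other genes in any group.

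The genes whose level followed that of ELIP1 most closely were sought over all 12 libraries, each library taken relative to the wild type of its kit, among 15957 genes. The 5 nearest by Pearson r were VDAC3, a channel of the outer mitochondrial membrane (0.983), AT5G08680 (0.980), ELIP2 (0.980), MPPBETA, a mitochondrial processing peptidase subunit (0.978), and ABCI7 (0.978). The other 4 were nearest in pattern but not in size, with differences of 0.30 to 0.37 in tfIIfα1 and 0.38 to 0.51 in tfIIfα2. SEP2 stood at place 157 (r = 0.918), OHP1 at 667 (0.846) and LIL3:1 at 1852 (0.715), and SEP1 ran opposite (-0.768). These values describe libraries that share kit and genotype, so the split of mutant from wild type weighs in all of them.

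Among the larger antenna relatives of these genes, the light-harvesting complex (LHC) proteins and PsbS, 6 of 22 rose and 5 fell in tfIIfα1 (median 0.01, log2), beside 3818 (18.7%) higher and 4002 (19.6%) lower of all 20371 genes (median -0.0022). LHCB4.3, an isoform of the minor antenna protein CP29, rose from 35.0 ± 4.49 to 96.2 ± 12.2 CPM (SD, n = 3; 1.46 ± 0.10, edgeR adjusted p = 7.19e-08). PSBS, the sensor of lumen pH in non-photochemical quenching, rose from 1546 ± 74.7 to 2451 ± 81.5 CPM (0.66 ± 0.06, edgeR adjusted p = 5.57e-07). LHCB3 rose by 0.35 ± 0.05. The symbol LHCB1.2 stands for 2 genes in the deposited data: AT1G29910 fell (-0.35 ± 0.06) and AT1G29920 did not pass (0.01 ± 0.05, edgeR adjusted p = 0.881). Their likeness in sequence, and its part in how reads were placed between them, was not tested. In tfIIfα2 1 of 22 rose and 0 fell (median -0.14), beside 279 (1.48%) higher and 324 (1.72%) lower of 18863 genes (median -0.00039). The one that rose was LHCB4.3, from 8.70 ± 0.841 to 32.3 ± 9.91 CPM (1.89 ± 0.22, edgeR adjusted p = 0.0151). With the replicate block 2 rose, beside 9.56% of all genes.

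Of 11 photosystem II assembly factors, the process in which the OHPs work, 2 rose and 4 fell in tfIIfα1 (median -0.11), and 0 rose and 1 fell in tfIIfα2 (median -0.14; with the block 1 and 3). Of all genes, 18.7% rose and 19.6% fell in tfIIfα1, 1.48% and 1.72% in tfIIfα2, and 9.56% and 9.18% with the block, so the rises in tfIIfα1 were near the share of all genes. LPA2, needed for photosystem II accumulation, fell in both mutants, from 42.2 ± 1.72 to 24.9 ± 0.571 CPM in tfIIfα1 (-0.76 ± 0.06, edgeR adjusted p = 4.39e-07) and from 16.1 ± 0.716 to 9.58 ± 1.37 CPM in tfIIfα2 (-0.75 ± 0.13, edgeR adjusted p = 0.0316). In tfIIfα1 PSB27-1, a lumenal protein of photosystem II repair, fell as well (-0.60 ± 0.06), while HCF136, an early assembly factor, rose (0.35 ± 0.06).

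Of 9 genes of the last steps of chlorophyll synthesis, the enzymes near which LIL3 acts, 6 rose and 1 fell in tfIIfα1 (median 0.23), and 0 and 0 passed in tfIIfα2 (median 0.17; with the block 2 rose and 2 fell). The shares over all genes were 18.7% higher and 19.6% lower in tfIIfα1, 1.48% and 1.72% in tfIIfα2, and 9.56% and 9.18% with the block. The 3 protochlorophyllide oxidoreductases differed: PORA rose from 1.89 ± 0.500 to 8.10 ± 0.883 CPM (2.09 ± 0.17, edgeR adjusted p = 2.90e-07) and PORC by 0.57 ± 0.06, while PORB fell (-0.50 ± 0.06). In tfIIfα2 PORA had 9.45 ± 7.15 CPM against 1.03 ± 0.479 in wild type (3.21 ± 0.73), with an edgeR adjusted p of 0.061, or 0.00026 with the block, and PORB was at -0.81 ± 0.31 (edgeR adjusted p = 0.179, or 0.00349 with the block). CRD1, a subunit of the cyclase that closes the ring of chlorophyll, rose in tfIIfα1 (0.60 ± 0.05).

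Light signalling genes, among them regulators of ELIP transcription such as HY5, gave 3 rises and 7 falls of 20 in tfIIfα1 (median -0.16) and 1 rise and 0 falls in tfIIfα2 (median 0.15; with the block 2 and 2). HY5 itself passed in neither mutant. It was at -0.38 ± 0.16 in tfIIfα1 (edgeR adjusted p = 0.0766) and -0.05 ± 0.21 in tfIIfα2 (edgeR adjusted p = 0.913). HYH, of the same list, passed in tfIIfα1 (0.57 ± 0.16, edgeR adjusted p = 0.0104), though its groups overlapped. In tfIIfα2 HYH was at 0.54 ± 0.45, again with overlap (edgeR adjusted p = 0.530, or 0.0223 with the block). The rises in tfIIfα1, and the calls with the block, were near the shares of all genes. Those shares were 18.7% higher and 19.6% lower in tfIIfα1, 1.48% and 1.72% in tfIIfα2, and 9.56% and 9.18% with the block. BBX25, a B-box protein that restrains HY5, rose in both, by 0.78 ± 0.10 in tfIIfα1 (edgeR adjusted p = 3.04e-05) and by 1.00 ± 0.10 in tfIIfα2 (edgeR adjusted p = 0.0092). BBX22, a B-box protein that promotes photomorphogenesis, fell in tfIIfα1 (-0.57 ± 0.08), as did the UV-B receptor gene UVR8 (-0.31 ± 0.06) and PIF1 (-0.38 ± 0.08), a repressor of greening. In tfIIfα2 BBX22 was at -0.62 ± 0.16 with an edgeR adjusted p of 0.0777, or 0.00277 with the block.

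Of the photoprotection genes 17 were tested in tfIIfα1, of which 8 rose and 3 fell (median 0.23), and 15 in tfIIfα2, of which 0 rose and 1 fell (median 0.06; with the block 2 and 1). Of all genes, 18.7% rose and 19.6% fell in tfIIfα1, near the share of this list that fell, and 1.48% and 1.72% in tfIIfα2, or 9.56% and 9.18% with the block. In tfIIfα1 ZEP, the zeaxanthin epoxidase of the xanthophyll cycle, rose by 0.41 ± 0.06, and FTSH5, FTSH8 and DEGP1, proteases that remove damaged photosystem II protein, rose by 0.35 ± 0.06, 0.36 ± 0.06 and 0.34 ± 0.06. In tfIIfα2 ZEP, FTSH5, FTSH8 and DEGP1 did not pass (edgeR adjusted p of 0.567, 0.412, 0.0813 and 0.410), though FTSH8 did with the block (0.020). VDE1, the violaxanthin de-epoxidase that runs the cycle in the opposite direction, fell in both mutants. It fell by -0.36 ± 0.08 in tfIIfα1 (edgeR adjusted p = 0.00259). In tfIIfα2 it went from 51.2 ± 7.75 to 30.3 ± 3.69 CPM (-0.76 ± 0.15, edgeR adjusted p = 0.041). None of the genes in these 5 lists lies in the offset stretch of chromosome 4. From tfIIfα1 replicate 1 alone, fewer genes fell: 2 of the LHC relatives, 3 of the light signalling genes and 0 of the photoprotection genes. Of the lists with a call in tfIIfα2, leaving out 1 library took the count to 0 in 5 of 6 cases for photosystem II assembly and for photoprotection, and in 3 of 6 for the LHC relatives and for light signalling.

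**Figure D4:**
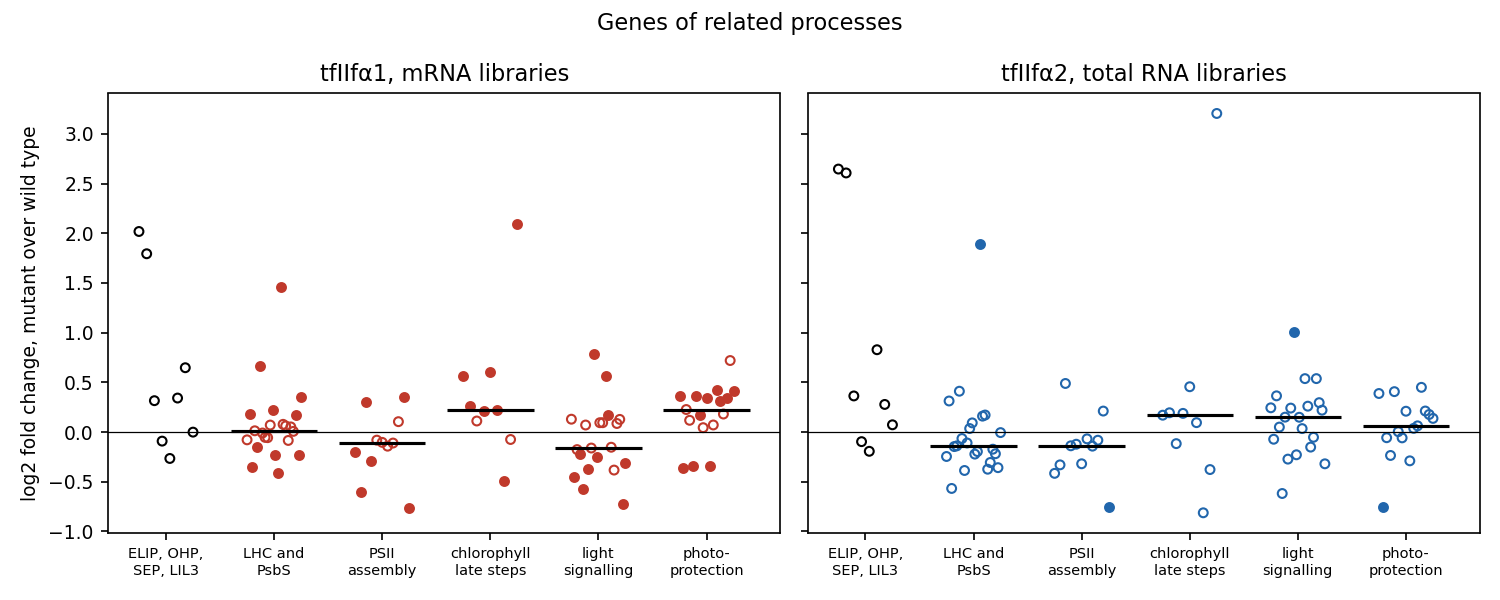
Log2 fold change of mutant over wild type (vertical axis) for the 8 genes (black, tests not marked) and for 5 lists of related genes in tfIIfα1 (left) and tfIIfα2 (right). Filled points passed at an adjusted p under 0.05, and horizontal lines are list medians, which lie between -0.16 and 0.23.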

How the data were processed

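RNA from aerial parts was sequenced in 12 libraries. The values analysed were the deposited counts, whole raw counts per gene, made by the authors. Without giving roles, the submitters' processing notes list edgeR 3.20.1, Bowtie2 2.2.9 and FastQC 0.11.5, and the build TAIR10; the counting tool and its strand setting are not given in the sources used here. Of the other deposited values, the authors' tfIIfα1 mean of normalized counts (whole numbers, treated as a score, per the file headers) was used only to check columns: over 210 genes with a mean above 20000 it was a weighted sum of the counts of tfIIfα1 replicate 1, a and b within 0.0035%, against up to 7.82% and 11.3% without a or b. A further 6 count columns of no sample of the series were not used.

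Counts were fitted with edgeR 4.0.16 (R 4.3.3; limma 3.58.1) separately for each kit: genes were kept by filterByExpr, libraries scaled by TMM, and quasi-likelihood p-values adjusted by Benjamini-Hochberg over all genes tested (threshold 0.05). The difference between the mutant effects was the kit by mutant interaction, in which allele, kit and wild-type line change together. The fit was also run on simulated data with far fewer changed genes than were called in tfIIfα1, and nothing is read from that. Alternatives were DESeq2 1.42.0, RLE scaling, other filters, 1 fit over 12 libraries, a replicate block and leaving out libraries. The replicate block took tfIIfα2 and wild-type libraries of the same number as pairs, which the sample titles do not state. Deviations from group means of same-numbered libraries correlated at 0.64, 0.23 and 0.53 over 18863 genes, each over 0.1. These correlations come from the same counts, and deviations within a group of 3 depend on each other. The pairing is therefore an assumption of the block. Named genes were the 8, RAP74, up to 4 genes of smallest p per list and comparison, and the 5 genes nearest to ELIP1. Named outside this rule were the root markers, HY5, HYH, AT1G29920, AT4G34200, ORC1B, AT4G12735 and BAM5. The 8 genes and the lists were chosen with earlier results of these data known. Gene structures and sequence came from RefSeq on TAIR10.1 (Python 3.11.15, Biopython 1.88), where 32827 of 33602 genes matched. Replicate counts of no pair agreed within sampling noise.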

Additional observations from a re-analysis of the deposited data

How the results depend on the processing

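Of 356 alternatives for the 8 genes, 325 kept direction and side of the threshold, or stayed within the replicate spread where there was no test; those that did not follow, and their causes were not tested. In tfIIfα1, 7820 genes were called, against 4329 in 1 fit over 12 libraries, 4838 from replicate 1 alone (chosen after seeing the data, with the lone library assumed to vary like wild type) and 6351 to 7039 with 1 library left out. From replicate 1 alone ELIP1 was at 1.42, ELIP2 at 1.43 and SEP2 at 0.24, and ELIP2 minus the median of its chromosome 4 stretch was at 2.79. LIL3:2, near 0, turned positive in 1 fit over 12 libraries (0.0084), with DESeq2 (0.0019), with RLE scaling (0.0028) and from replicate 1 alone (0.044), and ran from -0.031 to 0.029 with 1 library left out. In tfIIfα2, 603 genes were called, against 2926 in 1 fit over 12 libraries, 1294 with DESeq2, 3535 with the replicate block and 4 to 169 with 1 library left out. OHP1 in tfIIfα2 passed in 1 fit over 12 libraries (0.37), with DESeq2 (0.37) and with the block (0.36), LIL3:1 in the first (0.28) and with the block (0.28), and SEP2 failed with any library left out (0.76 to 0.90). The replicate block changed no other call among the 6 tested genes. It was not run for tfIIfα1, because 2 of its 3 columns cannot be tied by name to a number. In the kit by mutant interaction, 159 genes were called and 324 with DESeq2, and LIL3:1 passed with DESeq2 (-0.37). With 1 library left out, ELIP1 ran there from 0.27 to 1.44 and OHP2 from -0.10 to 0.058. Of 270 alternatives for the list counts, 221 stayed within 1.5 times. Depth limits ELIP1 most, with 14 counts in 1 wild-type library.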
